A study of Mus musculus with 8 samples.

Results

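The 33 genes described here mark radial glia and astrocytes, and they were read out of 38924 genes in ribosome-bound RNA from embryonic mouse dopamine and serotonin neurons. They were taken as a list of names, with no measured value in the rule, and each was found in the count tables by its Ensembl gene identifier. They form 3 classes: 8 progenitor genes (Nes, Vim, Sox2, Pax6, Hes1, Hes5, Fabp7 and Tnc), 7 genes shared by radial glia and astrocytes (Sox9, Slc1a3, Fgfr3, Ptprz1, Ttyh1, Id4 and Dbi) and 18 genes of mature astrocytes (Gfap, Aqp4, Aldh1l1, Slc1a2, Gja1, S100b, Aldoc, Agt, Glul, Apoe, Sparcl1, Clu, Mt1, Mt2, Mt3, Ndrg2, Slc4a4 and Cst3). The bacTRAP method puts a tagged ribosomal protein on a transgene that follows a chosen gene, so that RNA can be pulled down on the ribosomes of the cells that use this gene. Per the design text, 2 lines were used: DAT, with the transgene under the dopamine transporter gene Slc6a3, and SLC6A4, under the serotonin transporter gene. The description of every library, those of the serotonin neurons included, names the Slc6a3 line, so the groups follow the titles and source labels. The 6 midbrain dopamine libraries were 2 titled datL, 2 titled datM, 1 titled Lateral and 1 titled Medial, and the 2 hindbrain serotonin libraries were titled 5ht. What L and M stand for is not stated in the labels. For all libraries alike they state dissection at embryonic day 15, and that midbrain of day 18 was dissected at day 15 and kept 3 days in vitro. The file headers place datL and datM in a run of October and the other 4 libraries in lane 8 of another run, and only the headers of Lateral and Medial carry the mark E18. The labels do not say whether libraries of one group came from separate animals, so each p-value reflects library-to-library spread alone, and that spread may be technical.

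Radial glia line the ventricles of the embryonic brain, divide, and produce first neurons and later glia. Their intermediate filament proteins nestin and vimentin, the fatty acid carrier FABP7 and the transcription factors SOX2 and PAX6 are long-used markers, and Notch signalling through HES1 and HES5 keeps them from differentiating. Late in gestation the same lineage turns to making astrocytes, which take up glutamate (SLC1A2, SLC1A3), couple through connexin 43 (Gja1), hold water channels (AQP4) and secrete lipoproteins and matrix proteins such as apolipoprotein E and SPARCL1. Dopamine neurons themselves arise from radial glia of the midbrain floor plate.

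The 5 windows of 30 bases below are printed because they hold, upstream of members, the letters bound by RBPJ, the DNA-binding partner of Notch, and the core of the metal response element that drives metallothionein genes. Promoters (250 bases before to 50 after the start) of 28 of the 33 members were found in the RefSeq promoter table of mouse build GRCm38.p6. The motifs searched on both strands were GTGGGAA for RBPJ and TGCACNC for the metal response core. GTGGGAA was present in the promoters of Aldoc, Hes5, Mt2 and Tnc and in 6.38% of all 32851 promoters. TGCACNC was present in those of Mt1, Mt2, Mt3 and Pax6 and in 12.6% of all promoters. The windows of the Notch target Hes5 (chr4:154960686-154960715 and chr4:154960829-154960858) and of Mt2 (chr8:94172384-94172413 and chr8:94172557-94172586) and Mt1 (chr8:94179055-94179084) are written 5′ to 3′ on the + strand, with the match in capitals. A match is a description of the letters and not a measured binding site.
Hes5 upstream window: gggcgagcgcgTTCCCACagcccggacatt
Hes5 window nearer the start: ggccgccgagtGTGGGAAcggccgcggcgc
Mt2 upstream window: agcatcgcctcTGCACCCggcccctcgggc
Mt2 window nearer the start: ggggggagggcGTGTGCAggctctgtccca
Mt1 window: cggtcccgctgTGCACACtggcgctccagg

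Total counts ranged from 22417739 to 33216710 per library. The October run detected 11708 to 12509 genes per library and lane 8 detected 13703 to 15656. The libraries' labels were checked against transporter genes: Slc6a3 stood at 31.9 to 740 CPM (counts scaled to the library's total) in the dopamine libraries and at 0.679 and 0.171 CPM in serotonin, and Slc6a4 at 0 to 5.27 CPM and at 1196 and 1075 CPM. Libraries with one title differed widely: 39.1% of 12730 genes differed by more than 4-fold between the datL libraries, 37.7% between the datM libraries and 6.47% between the serotonin libraries. Of the 33 members, 7, 6 and 5 did so. All members together took 0.571% and 0.355% of the counts in datL, 0.739% and 0.547% in datM, 0.450% in Lateral, 0.812% in Medial, and 0.219% and 0.273% in serotonin, so every dopamine library lay above both serotonin libraries. In such bulk RNA, fewer cells of a type and less RNA per cell cannot be told apart.

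**Figure D1:**
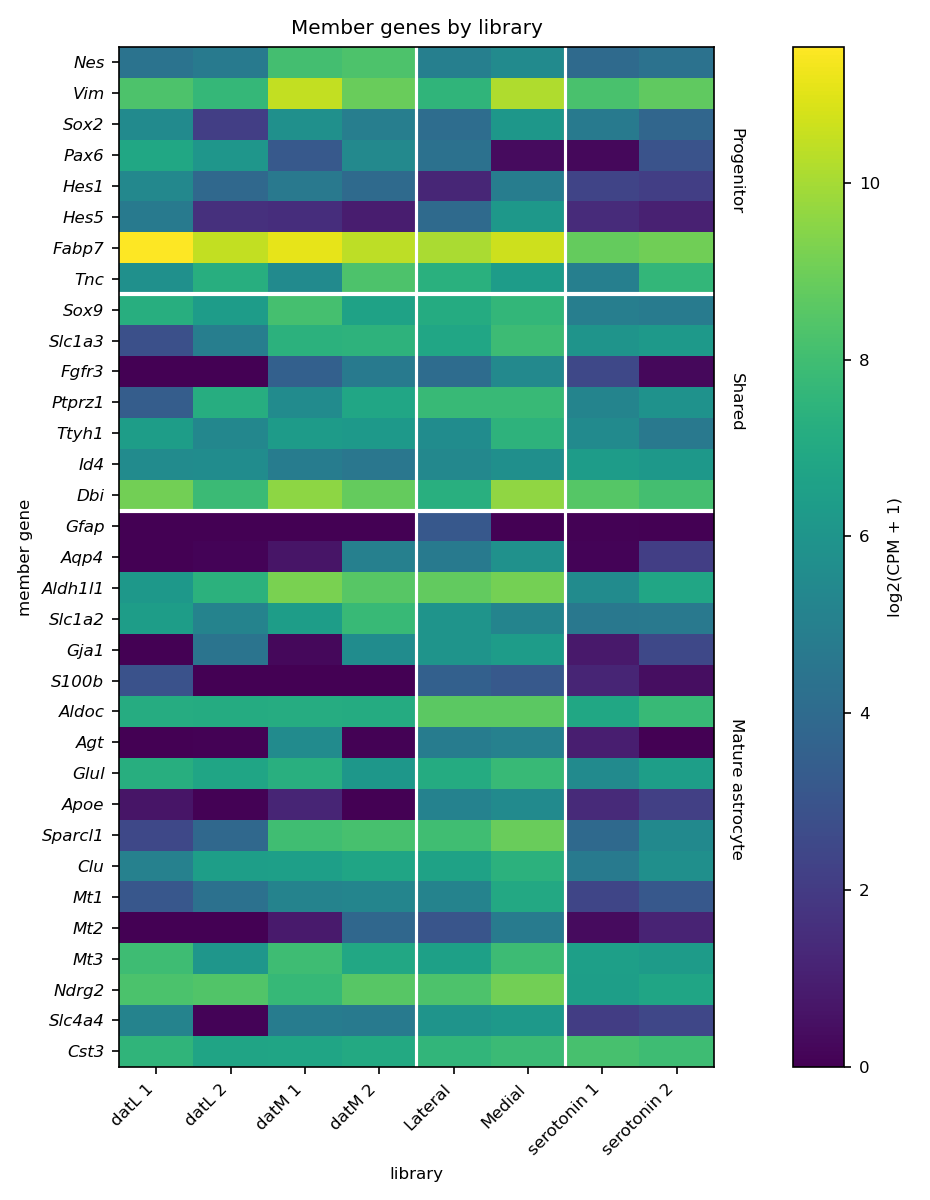
Level of each of the 33 member genes (vertical axis, in 3 classes) in each of the 8 libraries (horizontal axis), as log2(CPM + 1) by colour. Fabp7 is the highest member in every library, and Apoe is dark in datL, datM and serotonin but not in Lateral and Medial.

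Per kilobase of annotated exon, the mean level over the 8 libraries spanned from 1162 CPM per kb for Fabp7 to 0.240 CPM per kb for Gfap. Dbi (313 CPM per kb), Mt3 (274) and Vim (240) followed Fabp7, and Cst3 (147) and Ndrg2 (133) came next. At the low end stood Fgfr3 at 1.79, S100b at 2.26, Slc4a4 at 2.72, Pax6 at 2.75 and Aqp4 at 2.88 CPM per kb. Neighbours in this order were not separated beyond their spread: Dbi ranged from 107 to 547 CPM per kb over the libraries, Mt3 from 122 to 459 and Vim from 80.1 to 602. Fabp7 alone supplied 52.1% of the members' summed CPM in datL 1 and 19.4% in serotonin 2, its highest and lowest shares.

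Among the progenitor genes, Fabp7, the fatty acid-binding protein of radial glia (ENSMUSG00000019874.5, mm10 chromosome 10, 57784881 to 57788450), stood at 2974 and 1407 CPM in datL, 2209 and 1341 in datM, 1082 in Lateral, 1627 in Medial, and 451 and 530 in serotonin. Nes, the intermediate filament nestin (ENSMUSG00000004891.10, chromosome 3, 87971078 to 87980451), stood at 20.1 and 26.1 CPM in datL, 269 and 315 in datM, 30.9 in Lateral, 45.1 in Medial, and 14.7 and 19.2 in serotonin. For both genes the lowest dopamine library exceeded the highest serotonin library, and for Nes the datM libraries stood far above every other. Vim, the intermediate filament vimentin, stood at 314 and 203 CPM in datL, 1405 and 483 in datM, 187 in Lateral, 1163 in Medial, and 296 and 428 in serotonin. Its highest values were in datM 1 and Medial, and the dopamine and serotonin ranges overlapped. Sox2, a transcription factor of neural stem cells, ranged from 3.47 CPM in datL 2 to 67.0 in Medial, and the serotonin libraries at 25.9 and 13.1 CPM lay inside that range.

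Hes1, a Notch-induced repressor, stood at 40.3 and 13.9 CPM in datL, 24.2 and 14.6 in datM, 1.38 in Lateral, 29.0 in Medial, and 4.21 and 3.43 in serotonin. Lateral alone of the dopamine libraries lay below the serotonin values. Hes5, the second Notch-induced repressor of the list, stood at 25.3 and 2.06 CPM in datL, 1.87 and 0.874 in datM, 14.9 in Lateral, 71.1 in Medial, and 1.70 and 1.10 in serotonin. It was high in 3 dopamine libraries and near the serotonin level in the other 3. Counting ignored strand, and 31.8% of the exons of Hes5 overlap the antisense gene Gm20421, so their reads cannot be told apart. Pax6, a homeodomain factor of radial glia, stood at 115 and 66.6 CPM in datL, 8.26 and 41.6 in datM, 18.8 in Lateral, 0.268 in Medial, and 0.204 and 6.72 in serotonin. Its lowest dopamine library, Medial, had the highest Hes5. Tnc, the matrix protein tenascin C, stood at 54.8 and 149 CPM in datL, 44.9 and 315 in datM, 160 in Lateral, 82.5 in Medial, and 30.2 and 200 in serotonin, with wide gaps inside each pair.

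Among the shared genes, Sox9, a transcription factor required for gliogenesis (ENSMUSG00000000567.5, chromosome 11, 112782224 to 112787760), stood at 152 and 82.6 CPM in datL, 281 and 99.0 in datM, 138 in Lateral, 198 in Medial, and 29.6 and 26.8 in serotonin. Every dopamine library was above both serotonin libraries. Slc1a3, the glutamate transporter GLAST (ENSMUSG00000005360.8, chromosome 15, 8634124 to 8710764), stood at 6.08 and 29.3 CPM in datL, 168 and 177 in datM, 111 in Lateral, 237 in Medial, and 62.4 and 72.9 in serotonin. The datL libraries were the only dopamine libraries below serotonin for this gene. Fgfr3, a fibroblast growth factor receptor, had 0 counts in both datL libraries, where 3 counts would be 0.132 and 0.114 CPM, and stood at 10.8 and 25.4 CPM in datM, 15.7 in Lateral, 42.2 in Medial, and 4.68 and 0.206 in serotonin.

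Ptprz1, a receptor phosphatase of radial glia, stood at 9.52 and 147 CPM in datL, 45.9 and 111 in datM, 220 in both Lateral and Medial, and 35.8 and 57.3 in serotonin. Lateral and Medial were alike and lay above every other library. Ttyh1, a membrane protein of neural stem cells and astrocytes, ranged from 40.1 to 85.4 CPM in the October run and stood at 48.4 CPM in Lateral, 175 in Medial, and 44.4 and 24.8 in serotonin. Dbi, an acyl-CoA-binding protein, ranged from 152 CPM in Lateral to 778 in Medial, around serotonin values of 358 and 273. Id4, an inhibitor of DNA binding, went the other way: it stood at 47.1 and 48.2 CPM in datL, 27.3 and 22.9 in datM, 40.3 in Lateral, 53.2 in Medial, and at 81.7 and 69.6 in serotonin. Both serotonin libraries were above every dopamine library, and 10.3% of the exons of Id4 overlap the antisense gene A330033J07Rik.

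Of the mature astrocyte genes, the filament gene Gfap had 0 counts in the datL, datM, Medial and serotonin 2 libraries, 0.0339 CPM in serotonin 1 and 8.07 CPM in Lateral. A count of 0 allows up to 0.132 and 0.114 CPM in datL, 0.110 and 0.125 in datM, 0.134 in Medial and 0.103 in serotonin 2, which covers counting error only. Aqp4, S100b and Agt were also at or near 0 in part of the libraries. Other genes of the class were not: Aldh1l1, Aldoc, Slc1a2 and Ndrg2 stood at 23.4 CPM or more in every library. Aqp4, the water channel, stood at 0 and 0.0763 CPM in datL, 0.587 and 31.7 in datM, 25.3 in Lateral, 55.8 in Medial, and 0.0679 and 3.40 in serotonin. S100b, a calcium-binding protein, stood at 6.39 CPM in datL 1, 10.5 in Lateral, 8.34 in Medial, and 1.26 and 0.343 in serotonin, with 0 counts in the other 3 libraries. Agt, angiotensinogen, stood at 46.8 CPM in datM 1, 27.4 in Lateral and 32.3 in Medial, and was under 1 CPM in the other 5 libraries. Gfap was thus above 1 CPM in Lateral alone, and Aqp4 reached 25.3 CPM or more in datM 2, Lateral and Medial. None of Gfap, Aqp4, S100b and Agt exceeded 3.40 CPM in serotonin.

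Apoe, the lipid carrier (ENSMUSG00000002985.9, chromosome 7, 19696109 to 19699166), stood at 0.573 and 0.0381 CPM in datL, 1.28 and 0 in datM, 34.1 in Lateral, 45.5 in Medial, and 1.56 and 3.57 in serotonin. Only Lateral and Medial carried more than a trace. Gja1, connexin 43, stood at 0 and 20.4 CPM in datL, 0.183 and 47.8 in datM, 61.0 in Lateral, 82.7 in Medial, and 0.713 and 4.73 in serotonin. Slc4a4, a bicarbonate cotransporter, stood at 35.3 and 0.0763 CPM in datL, 28.0 and 26.4 in datM, 62.6 in Lateral, 75.1 in Medial, and 3.26 and 4.49 in serotonin. For Gja1 and Slc4a4 too, Lateral and Medial lay above all other libraries. Aldoc, the brain form of aldolase, stood at 140 and 136 CPM in datL, 141 and 137 in datM, 394 in Lateral, 398 in Medial, and 115 and 220 in serotonin. It was nearly level across the October run, and serotonin 2 lay above that level.

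Sparcl1, a secreted matrix protein that promotes synapses (ENSMUSG00000029309.3, chromosome 5, 104079111 to 104114088), stood at 4.71 and 14.0 CPM in datL, 256 and 287 in datM, 258 in Lateral, 473 in Medial, and 14.4 and 43.1 in serotonin. Aldh1l1, the folate enzyme used as an astrocyte marker, stood at 71.1 and 171 CPM in datL, 586 and 373 in datM, 432 in Lateral, 567 in Medial, and 46.0 and 112 in serotonin. In both genes datM, Lateral and Medial formed the high libraries. For Aldh1l1 datL stood near serotonin, and for Sparcl1 both datL libraries lay below both serotonin libraries. The antisense genes Gm26703 and Gm15756 overlap 6.45% of the exons of Sparcl1 and 11.1% of those of Aldh1l1. Slc1a2, the main glutamate transporter of astrocytes, stood at 85.1 and 34.6 CPM in datL, 83.6 and 216 in datM, 62.3 in Lateral, 36.0 in Medial, and 23.4 and 24.2 in serotonin. Ndrg2, an astrocyte-enriched protein of the NDRG family (ENSMUSG00000004558.8, chromosome 14, 51905271 to 51913488), stood at 307 and 337 CPM in datL, 211 and 370 in datM, 319 in Lateral, 549 in Medial, and 87.2 and 109 in serotonin. For both, the dopamine and serotonin ranges did not overlap.

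Glul, the glutamine synthetase, ranged from 68.7 to 216 CPM in dopamine libraries and stood at 44.8 and 86.9 in serotonin. Clu, the secreted chaperone clusterin, ranged from 32.8 to 169 CPM against 26.4 and 52.5. The metallothioneins, which bind zinc and copper, differed in level: Mt3 ranged from 65.8 to 247 CPM in dopamine libraries against 90.3 and 79.3 in serotonin, Mt1 from 7.80 to 124 against 4.24 and 7.92, and Mt2 from 0 to 26.7 against 0.271 and 1.23. Mt1 and Mt2, whose windows are printed above, were both highest in Medial. Cst3, the protease inhibitor cystatin C, stood at 185 and 107 CPM in datL, 108 and 128 in datM, 192 in Lateral, 231 in Medial, and 287 and 250 in serotonin. Like Id4, it was higher in both serotonin libraries than in every dopamine library.

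The comparison that the design text names sets dopamine neurons against serotonin neurons. Neuron type, brain region (midbrain or hindbrain) and, per the design text, the transgene line cannot be told apart in it. Run is partly tied to neuron type as well, because datL and datM came from the October run and both serotonin libraries from lane 8. Of the 32 members tested (Gfap did not pass the filter on low counts), 30 had higher fitted levels in the 6 dopamine libraries, beside 58.9% of all genes, and Id4 and Cst3 had lower ones, beside 41.1%. The members' median log2 fold change was 2.16 (progenitor 2.29, shared 1.38, mature astrocyte 2.39), beside 0.26 over all 13806 genes tested. None of the members passed the threshold of edgeR's quasi-likelihood test (Benjamini-Hochberg adjusted p of 0.05 over all genes), where 0.0% of all genes passed. At an unadjusted p under 0.05, 7 members were higher in dopamine libraries (2.8% of all genes) and 0 lower (1.9%). DESeq2 called 3 members, Fabp7, Sox9 and Ndrg2, among 133 genes, and limma-voom called 0 members among 14 genes.

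The dopamine and serotonin ranges did not overlap for 7 members. Nes, Fabp7, Sox9, Slc1a2 and Ndrg2 were higher in every dopamine library, beside 3.06% of all genes, and Id4 and Cst3 were lower, beside 8.59%. Without serotonin 2 the count above was 12, beside 5.47% of all genes, and without datL 1 or datL 2 it was 8, beside 6.11% and 4.04%. Of the members tested, 23 had 10 or more counts in every library. The other 9 (Pax6, Fgfr3, Aqp4, Gja1, S100b, Agt, Apoe, Mt2 and Slc4a4) could pass the filter through their high libraries, so their differences are partly set by it. Ndrg2 averaged 349 ± 111 CPM (SD, n = 6) in dopamine and 98.2 ± 15.6 CPM (SD, n = 2) in serotonin libraries, a log2 fold change of 1.94. Its standard error was 0.44, with an edgeR unadjusted p of 0.000967 and an adjusted p of 0.328. Sox9 averaged 158 ± 72.7 and 28.2 ± 1.98 CPM, with a log2 fold change of 2.62 (SE 0.62, adjusted p = 0.328). Fabp7 averaged 1773 ± 700 and 490 ± 55.5 CPM, with a log2 fold change of 2.01 (SE 0.51, adjusted p = 0.328). For Cst3, 158 ± 51.4 and 269 ± 26.1 CPM gave a log2 fold change of -0.65 (SE 0.41, unadjusted p = 0.142).

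**Figure D2:**
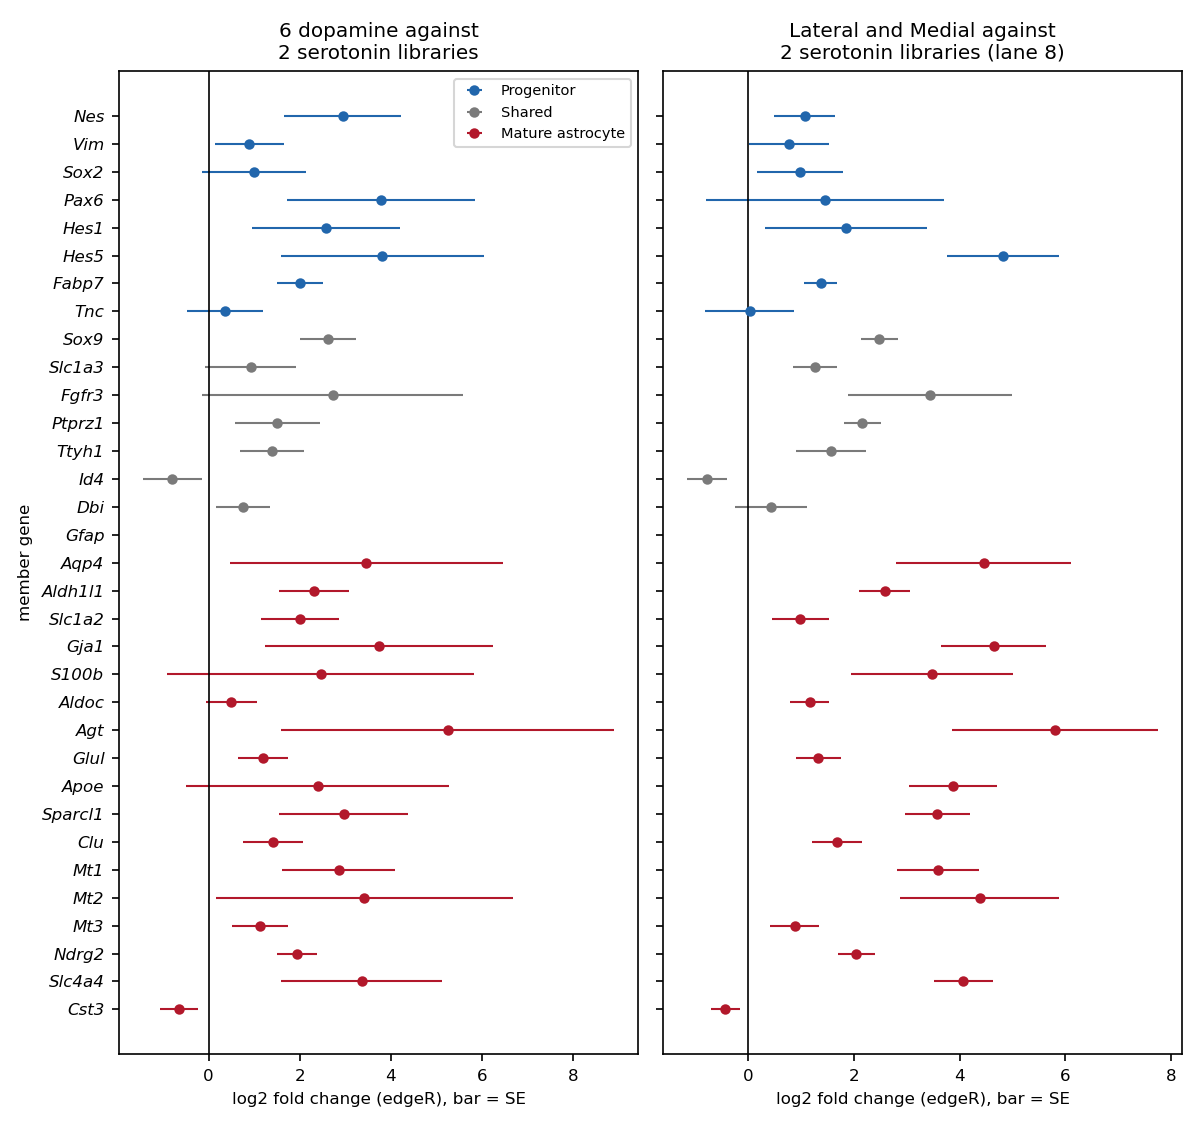
Fitted log2 fold change of each member (points, coloured by class) with its standard error (bars), for 6 dopamine against 2 serotonin libraries (left) and for Lateral and Medial against serotonin within lane 8 (right). Gfap was not tested. Most points lie right of 0, Id4 and Cst3 lie left of it, and the median of the mature astrocyte genes is 2.39 on the left and 3.47 within lane 8, although Slc1a2 and Mt3 lie farther left there (0.98 and 0.88, instead of 2.01 and 1.12).

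Within lane 8, Lateral and Medial were set against the same serotonin libraries, so this comparison shares its controls with the one above. The E18 mark, the brain region and the neuron type cannot be told apart in it. Both E18-marked libraries lay above both serotonin libraries for 16 of 17 mature astrocyte genes tested, 5 of 7 shared genes and 3 of 8 progenitor genes, beside 25.0% of all 13400 genes tested. Id4 and Cst3 lay below, beside 24.6%. The fitted level was higher for 30 members (50.9% of all genes) and lower for these 2 (49.1%). The count for mature astrocyte genes was 16 whichever of the 4 libraries was left out, beside 32.8% to 43.5% of all genes, while that for progenitor genes was 6 without Lateral (43.5%) and 5 without serotonin 2 (33.6%). The median log2 fold change was 3.47 for mature astrocyte, 1.57 for shared and 1.22 for progenitor genes, beside 0.03 over all genes. None of the 32 members tested passed the threshold in edgeR, where 0.0224% of all genes did. At an unadjusted p under 0.05, 13 mature astrocyte, 3 shared and 2 progenitor genes were higher (7.34% of all genes) and 0 members were lower (6.46%). DESeq2 called 15 members among 787 genes, limma-voom 0 among 1, and edgeR without the Lateral library 18 among 2453. Of the members tested here, 27 had at least 10 counts in every library. The exceptions were Pax6, Fgfr3, Aqp4, Agt and Mt2. Fgfr3, Aqp4, Agt and Mt2, 4 of the 24 members above serotonin without overlap, could pass the filter through Lateral and Medial, where they were high. Aqp4, Agt and Mt2 were also 3 of the 18 with an unadjusted p under 0.05. Oligodendrocyte lineage markers were higher in the same libraries, at 314 summed CPM in Lateral and 614 in Medial against 129 and 160 in serotonin. Of these 10 genes, 9 had higher fitted levels (50.9% of all genes), with a median log2 fold change of 2.49, and their part in the members' differences was not tested.

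The member differences within lane 8 with the smallest p were those of Slc4a4 and Sox9. Slc4a4 averaged 68.9 ± 8.79 CPM (SD, n = 2) in Lateral and Medial and 3.88 ± 0.874 CPM (SD, n = 2) in serotonin, a log2 fold change of 4.07. Its standard error was 0.56, with an edgeR adjusted p of 0.254. Sox9 gave 168 ± 42.4 and 28.2 ± 1.98 CPM and a log2 fold change of 2.48 (SE 0.35, adjusted p = 0.254). Apoe gave 39.8 ± 8.05 and 2.56 ± 1.42 CPM and a log2 fold change of 3.87 (SE 0.83, adjusted p = 0.273), and Hes5 43.0 ± 39.8 and 1.4 ± 0.424 CPM and 4.81 (SE 1.06, adjusted p = 0.273). Sparcl1 gave 366 ± 152 and 28.7 ± 20.3 CPM and a log2 fold change of 3.58 (SE 0.62, adjusted p = 0.273). For Nes the log2 fold change was 1.07 (SE 0.58, adjusted p = 0.491), where the comparison of all dopamine libraries gave 2.94 (SE 1.28).

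The datL libraries were compared with the datM libraries in a fit of all 8 libraries. Nestin, vimentin, GLAST, SPARCL1 and ALDH1L1 messages were lower in both datL than in both datM libraries, and Pax6, Hes5 and Id4 were higher. For Hes5 the closest libraries, datL 2 and datM 1, were nearly tied at 54 and 51 counts. The fitted level was higher in datL for 11 members (45.4% of all genes) and lower for 21 (43.9%). Without overlap, 11 of 33 members were lower in datL (13.2% of all 15177 genes tested) and 3 higher (11.3%). The 11 were 7 mature astrocyte, 2 shared and 2 progenitor genes, Clu and Mt1 among them. For Clu the closest libraries, datL 2 and datM 1, stood near each other at 86.3 and 89.2 CPM. Of these 33, the count of lower members was 21 without datL 1, 13 without datL 2, 15 without datM 1 and 18 without datM 2, beside 24.4% to 30.5% of all genes, and that of higher members was 4, 9, 6 and 5, beside 27.8%, 28.0%, 23.5% and 22.4%. The counts of higher members were thus near or below the share of all genes. In edgeR 0 members and 0.0% of all genes passed the threshold. At an unadjusted p under 0.05, 8 members were lower in datL (3.52% of all genes) and 0 higher (3.4%): Nes, Vim, Slc1a3, Fgfr3, Aqp4, Aldh1l1, Sparcl1 and Mt2. DESeq2 called 7 members among 1609 genes and limma-voom 1 among 243. All 33 members passed the filter in this fit, and 24 of them had at least 10 counts in each datL and datM library. Fgfr3, Aqp4, Agt and Mt2 did not: they are 4 of the 11 lower members, and Fgfr3, Aqp4 and Mt2 are 3 of the 8 with an unadjusted p under 0.05. They could pass the filter through libraries where they were high, which leaves 7 lower members without overlap and 5 with such a p among the 24. Sparcl1 had a log2 fold change of -4.79 (SE 0.89, unadjusted p = 0.00092, adjusted p = 0.597), Nes of -3.58 (SE 0.71, adjusted p = 0.597) and Slc1a3 of -3.22 (SE 0.89, adjusted p = 0.597). Fgfr3 and Mt2 had 0 counts in both datL libraries, so no fold is given for them.

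**Figure D3:**
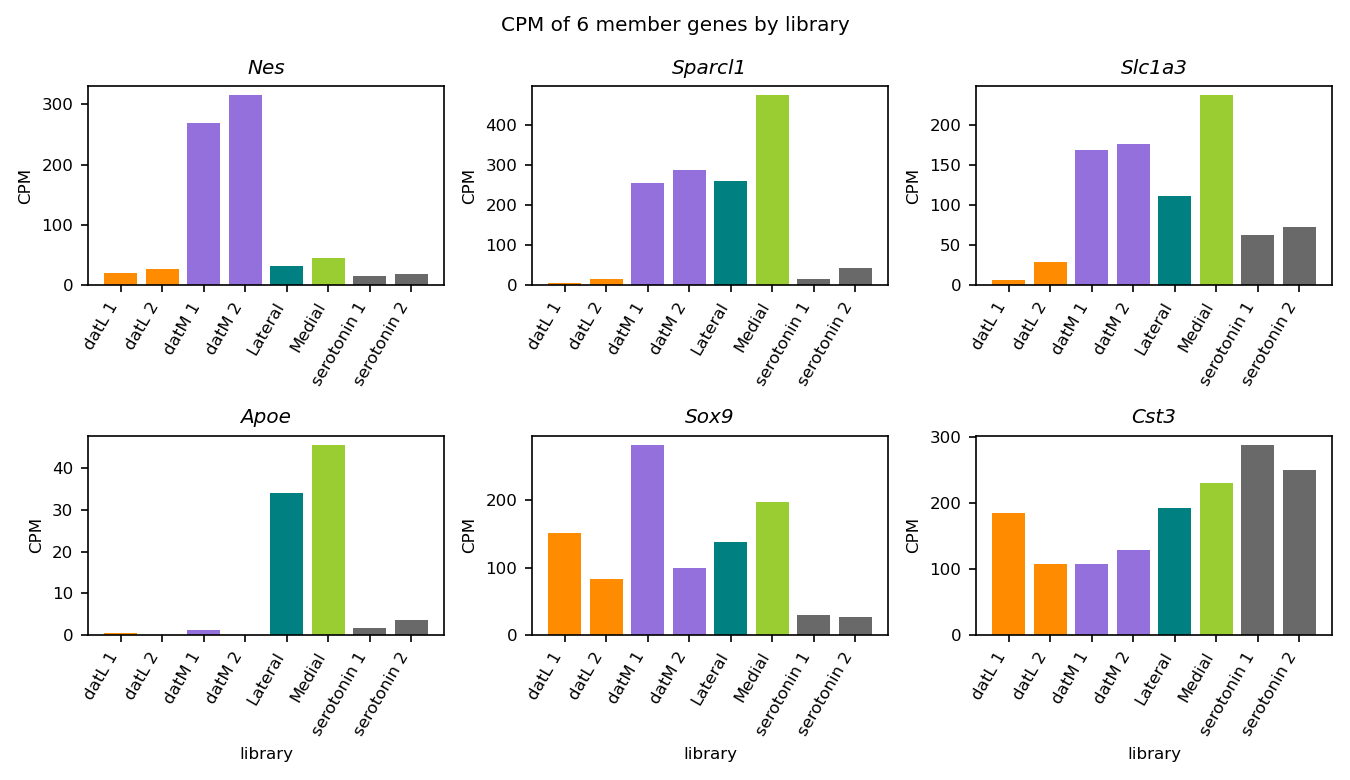
CPM (vertical axis, from 0) of 6 members in each library (bars, coloured by title). Nes is high in the datM libraries only, Sparcl1 and Slc1a3 are low in datL, Apoe is at 34.1 and 45.5 CPM in Lateral and Medial and at most 3.57 CPM elsewhere, and Sox9 and Cst3 separate dopamine from serotonin in opposite directions.

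The summed level of markers of the floor plate, the origin of dopamine neurons, was also lower in both datL than in both datM libraries. It was 10.9 and 34.6 CPM in datL, 324 and 246 in datM, 144 in Lateral, 178 in Medial, and 86.6 and 67.6 in serotonin. All 6 of the 8 floor plate genes tested had negative log2 fold changes for datL against datM, beside 43.9% of all genes. Of the 8 genes, 6 had 0 counts in datL 1 and 4 in datL 2. Such genes could pass the filter through other libraries, so their sign is partly set by it. Of the genes tested, Spon1 stood at 10.6 and 0.954 CPM in datL and 246 and 61.7 in datM, and Wnt5a at 0.352 and 0.153 and at 73.1 and 58.2. The neuron list overlapped, at 17942 and 16305 summed CPM in datL and 19818 and 15532 in datM. Other lists separated the pairs as well. Ependymal markers summed to 0.0881 and 9.50 CPM in datL and 51.3 and 132 in datM, and endothelial and mural markers to 8.94 and 62.6 and to 87.8 and 154. Proliferation genes summed to 266 and 435 CPM in datL and 551 and 577 in datM, although 5 of the 10 had positive log2 fold changes. Dopamine neuron genes summed to 369 and 946 CPM in datL, 1826 and 1325 in datM, and 391 and 421 in serotonin. By this sum datL 1 lay below both serotonin libraries. Of the 7 genes in this list, 2 had lower fitted levels in dopamine than in serotonin libraries, so the sum does not measure dopamine identity alone. Slc6a3 by itself was higher in every dopamine library, datL 1 included, than in serotonin. The part of any of these cells in the difference between datL and datM was not tested.

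The 4 October libraries were also set against Lateral and Medial, 2 sets of dopamine libraries that differ by run and by the E18 mark, which cannot be told apart. The median log2 fold change (October minus E18-marked) was -1.23 for mature astrocyte, -0.45 for shared and 0.55 for progenitor genes, beside 0.11 over all 12818 genes tested. All October libraries lay below both E18-marked libraries for 6 of 17 mature astrocyte genes (Gja1, S100b, Aldoc, Apoe, Slc4a4 and Cst3), 1 of 7 shared genes (Ptprz1) and 0 of 8 progenitor genes, beside 12.5% of all genes. They lay above for 0 members, beside 2.77%. The fitted level was higher in the October run for 10 members (53.8% of all genes) and lower for 22 (46.2%). Without Lateral the 3 counts below were 13, 6 and 2, beside 25.8% of all genes, and without datM 2 they were 10, 2 and 0, beside 18.4%. Of the members tested, 23 had at least 10 counts in every library, and S100b, Gja1, Apoe and Slc4a4 were not among them. These genes could pass the filter through Lateral and Medial, where they were high. Among the 23, 3 lay below without overlap (Ptprz1, Aldoc and Cst3), beside 12.5% of all genes. In edgeR 0 members and 0.0% of all genes passed the threshold, and DESeq2 (40 genes) and limma-voom (0 genes) called 0 members. At an unadjusted p under 0.05, Aldoc and Apoe were lower (3.81% of all genes) and 0 members higher (0.663%). Aldoc had a log2 fold change of -1.34 (SE 0.45, adjusted p = 0.469) and Apoe of -6.19 (SE 2.52, adjusted p = 0.854). Apoe had 13 and 1 counts in datL and 35 and 0 in datM, so the size of its fold rests on few counts.

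**Figure D4:**
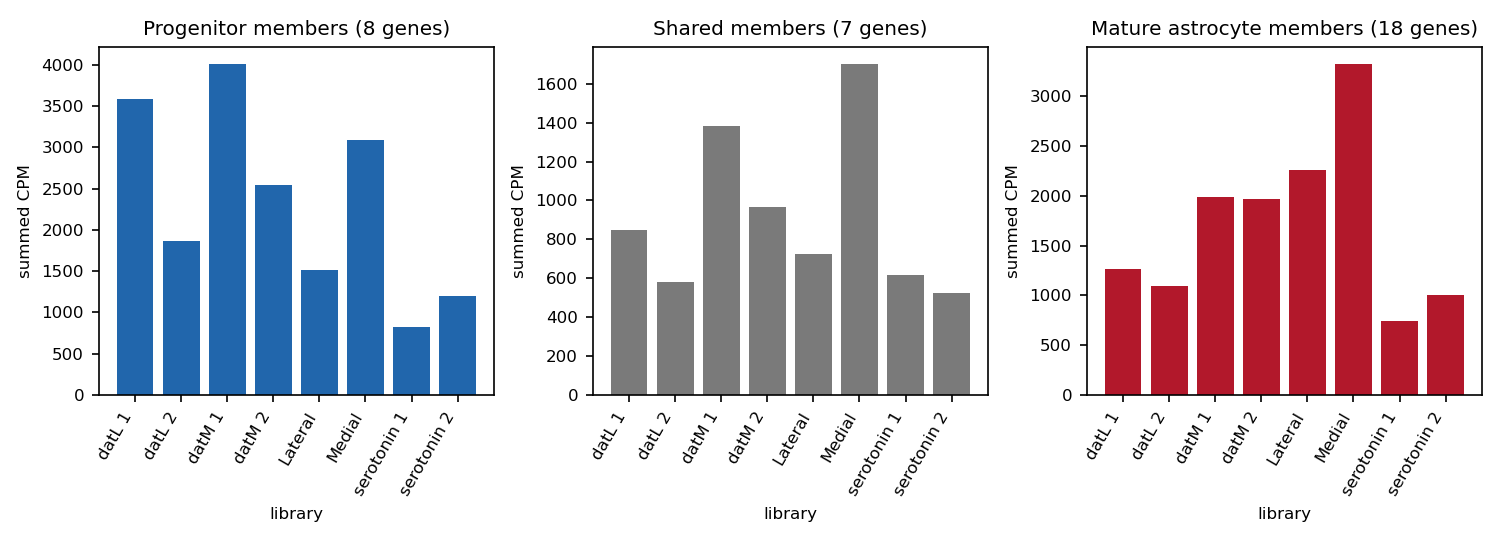
Summed CPM (vertical axis, from 0) of the 8 progenitor, 7 shared and 18 mature astrocyte members in each library (bars). The progenitor sum is highest in datM 1 at 4016 CPM, the mature astrocyte sum in Medial at 3330 CPM, and the serotonin libraries are lowest in both panels.

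Summed over each class, the progenitor genes took 3588 and 1871 CPM in datL, 4016 and 2541 in datM, 1512 in Lateral, 3085 in Medial, and 824 and 1200 in serotonin. The mature astrocyte genes took 1269 and 1099 CPM in datL, 1991 and 1965 in datM, 2260 in Lateral, 3330 in Medial, and 747 and 1004 in serotonin. For both classes each dopamine library was above both serotonin libraries. The shared genes took 848 and 579, 1380 and 964, 725 and 1704, and 616 and 525 CPM in the same order, and datL 2 lay between the serotonin libraries. The progenitor sum divided by the mature astrocyte sum was 2.83 and 1.70 in datL, 2.02 and 1.29 in datM, 0.669 in Lateral, 0.926 in Medial, and 1.10 and 1.20 in serotonin. The October libraries stood above serotonin and the E18-marked libraries below it. Part of this order rested on Fabp7. Without it the ratio was 0.484 and 0.423 in datL, 0.908 and 0.611 in datM, 0.190 in Lateral, 0.438 in Medial, and 0.499 and 0.668 in serotonin, so both datL libraries then lay below both serotonin libraries, as Lateral and Medial did with and without Fabp7.

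Lateral and Medial, with 1 library each, could be described but not tested. Medial was more than 2-fold above Lateral for 12 of 33 members, beside 24.2% of the 11867 genes with at least 100 counts summed over both libraries. Lateral was more than 2-fold above Medial for Pax6 and Gfap, beside 25.0%. Medial was the higher library for 28 of 33 members, beside 52.2% of all genes. The median ratio of Medial to Lateral was 2.77 for progenitor, 2.14 for shared and 1.35 for mature astrocyte genes, beside 1.05 over all genes. Hes1 was 21.0-fold higher in Medial, Vim 6.22-fold, Dbi 5.10-fold and Hes5 4.78-fold. The mature astrocyte genes Aldoc (1.01-fold), Agt (1.18-fold) and Slc4a4 (1.20-fold) were nearly level. Ependymal genes, which mark the ciliated lining of the ventricle, summed to 213 CPM in Medial and 15.4 in Lateral, and their part in these ratios was not tested.

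**Figure D5:**
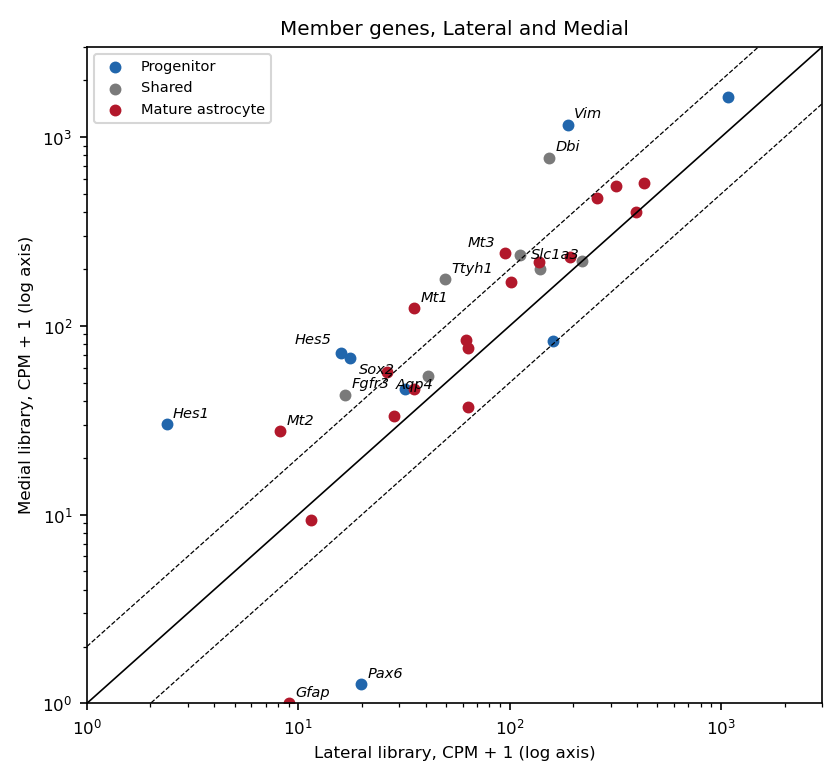
CPM + 1 of each member in Lateral (horizontal, log axis) against Medial (vertical, log axis), coloured by class, with lines of equal level (solid) and of a 2-fold ratio (dashed). Most points lie above the solid line, and Pax6 and Gfap lie below the lower dashed line.

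Other genes of the same lineage were read from lists of pathway and lineage genes. Over all genes tested, 58.9% had higher fitted levels in dopamine libraries, with a median log2 fold change of 0.26, and 2.8% were higher at an unadjusted p under 0.05. Within lane 8, 50.9% had higher fitted levels, with a median of 0.03. Of 24 Notch pathway genes tested, 16 had higher and 8 lower fitted levels in dopamine libraries, with a median log2 fold change of 0.33, close to that of all genes. Notch2, a receptor, stood at 21.9 ± 12.4 CPM (SD, n = 6) in dopamine and 5.46 ± 0.958 CPM (SD, n = 2) in serotonin libraries. Of 18 gliogenic signalling genes tested, 17 had higher fitted levels, with a median of 1.18, and 3 had an unadjusted p under 0.05. Nfia, a factor that starts gliogenesis, stood at 460 ± 227 and 172 ± 21.1 CPM (log2 fold change 1.56, SE 0.57), Nfib at 298 ± 199 and 108 ± 8.87 CPM, and Id3 at 153 ± 74.2 and 65.4 ± 3.49 CPM. Fitted levels of further astrocyte genes were higher in 13 of 14, with a median of 1.75, and within lane 8 in 12 of 12, with a median of 1.82. Those of further radial glia genes were higher in 10 of 14 with a median of 0.62, but within lane 8 in 6 of 14 with a median of -0.12. Phgdh, a serine synthesis enzyme, stood at 154 ± 77.1 and 27.8 ± 1.36 CPM. None of the genes in these 4 lists passed the edgeR threshold in either comparison.

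Markers of other cells were read in the same libraries, and their part in the members' results was not tested. The fitted levels counted here are read beside the 58.9% of all genes that were higher in dopamine libraries, and none of these genes passed the edgeR threshold. Proliferation genes were higher in 10 of 10, with a median log2 fold change of 2.20, and summed to 256 to 577 CPM against 112 and 139 CPM in serotonin. Top2a stood at 153 ± 167 and 12.4 ± 5.58 CPM. Oligodendrocyte lineage genes were higher in 8 of 10, with a median of 1.99, and summed to 89.3 to 614 CPM against 129 and 160 CPM. Red blood cell genes were higher in 6 of 6, with a median of 3.44, beside 2.16 for the members. They summed to 102 to 718 CPM against 30.4 and 50.4 CPM. Endothelial and mural genes were higher in 6 of 8 tested, with a median of 3.32, and summed to 8.94 to 160 CPM against 14.3 and 22.4 CPM. Meningeal fibroblast genes were higher in 0 of 3 tested, with a median of -2.28. They summed to 0.0416 to 38.2 CPM against 0.713 and 48.9 CPM. Microglia genes were higher in 3 of 3 tested, with a median of 5.45. They stayed at or below 14.1 CPM in sum, with P2ry12, Tmem119 and Csf1r at 0 in every library. Neuron genes summed to 15532 to 21983 CPM against 20742 and 20624 CPM, so the ranges of both groups overlapped for neuron genes. They also overlapped for the sum of the shared members, and not for the progenitor, mature astrocyte and all-member sums.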

How the data were processed

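Per the labels' protocols, cDNA from the ribosome-bound RNA of 8 libraries went through 10 enrichment cycles and was read as 100 bp single ends. The submitters' processing notes name STAR and the build mm10. The authors deposited raw read counts per gene, made with featureCounts 1.4.3-p1 on a GENCODE annotation without strand, per the file headers. Symbols were attached by Ensembl identifier to 37607 of 38924 genes. CPM scales a count to the library's total, and CPM per kb divides it by the annotated exon length.

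Genes were tested across the whole table in R 4.3.3 with edgeR 4.0.16 (quasi-likelihood, two-sided, TMM factors, filterByExpr, Benjamini-Hochberg over all genes tested, threshold 0.05). The test was checked on simulated counts. It had to pass only at a low spread between simulated libraries, so the check does not show how the test performs at a wide spread. Standard errors were derived from the fold change and its test statistic. Groups were taken from the titles: 6 dopamine against 2 serotonin libraries, Lateral and Medial against serotonin, datL against datM in a fit of 5 groups, and datL with datM against Lateral with Medial. Alternatives were RLE factors, library totals, DESeq2 1.42.0, limma-voom (limma 3.58.1), other filters, other sets of libraries, a replicate block and leaving out each library. All members were named. Values in every library were given for most of those without overlap between groups or with the 3 largest or 3 smallest fold changes of their class. For Sox2, Dbi, Ttyh1, Agt, Glul, Clu, Mt1, Mt2 and Mt3, some libraries were given as a range or limit only. Of each other list, up to 4 genes with the smallest p and a mean of at least 1 CPM could be named, and not every such gene is reported here. The microglia genes at 0 were named besides. The members, the lists and the tests were chosen with earlier results of these data known. Intervals and the floor of 3 counts cover counting error only. Coding and untranslated parts were not analysed here.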

Additional observations from a re-analysis of the deposited data

Results flagged for a closer look

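Among the 6 dopamine libraries, a single library stood far from the others for 5 of 37 items tested (the 33 members, the sums of the 3 classes and of all members), by Dixon's gap test at its 95% critical value. That value flags about 1 in 20 groups of 6 values drawn from a single normal population. These libraries span several titles and both runs, and CPM were not put on a log scale. The rate of 1 in 20 therefore need not hold here, and the number flagged is not compared with it. Medial was far above the rest for Hes5 (71.1 CPM, the next being 25.3), Ttyh1 (175 CPM, the next being 85.4) and Mt1 (124 CPM, the next being 36.7). Lateral held the 8.07 CPM of Gfap, which had 0 counts in the other dopamine libraries and would be flagged at any level. The datM 2 library stood at 216 CPM for Slc1a2, where the next was 85.1 CPM.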

How the results depend on the processing

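No member passed edgeR's threshold in any of the 4 comparisons under RLE factors, library totals or either other filter. Over all genes, DESeq2, limma-voom and a 5-group fit called 133, 14 and 2 for dopamine against serotonin, and 787, 1 and 0 within lane 8 (7 without a filter). DESeq2 and limma-voom called 1609 and 243 for datL against datM, and DESeq2 and the 5-group fit called 40 and 1 for the October libraries against Lateral and Medial. Leaving out each library gave 0 to 1, 13 to 2453 and 0 to 6 called genes in the first 3, the 2453 without Lateral, and 0 in the fourth. Members called in these fits were 18 without Lateral and 2 without serotonin 2 within lane 8, and 1 without either serotonin library for datL against datM. Library totals moved the median log2 fold change of all genes from 0.26 to 0.14 for dopamine against serotonin, and from 0.11 to -0.07 between the runs. In the former, 298 genes were higher and 325 lower at an edgeR unadjusted p under 0.05, instead of 386 and 262. For dopamine against serotonin the median fell below 0 in limma-voom (-0.64), the 5-group fit (-0.37) and the replicate block (-0.07), and was 0.14 to 0.31 in the other alternatives. Between the runs it was -0.69 in limma-voom and -0.10 in the 5-group fit. The share of all genes set beside the members thus depends on the fit.

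Signs turned under at least 1 alternative for 3 of 32 members in dopamine against serotonin, 6 of 32 within lane 8, 15 of 33 for datL against datM and 10 of 32 between the runs; the cause was not tested. The log2 fold change within lane 8 was -0.65 for Pax6 and -0.037 for Tnc in the 5-group fit. For datL against datM, Ptprz1 stood at -0.0052 with library totals and -0.64 in limma-voom, and the progenitor median at 0.031 in limma-voom. Between the runs, Vim stood at -0.17 and Sox9 at -0.13 with library totals, Sox9 at -0.077 in limma-voom and Sox2 at 0.12 in the 5-group fit. Leaving out each library gave -0.49 to 2.21 for Tnc (dopamine against serotonin). Within lane 8 it gave -0.96 to 1.55 for Vim, -0.24 to 1.65 for Sox2, -3.80 to 5.48 for Pax6 (6 counts in serotonin 1 and in Medial), -1.47 to 2.79 for Hes1, -0.77 to 1.92 for Tnc and -1.06 to 1.17 for Dbi. For datL against datM it gave -0.36 to 0.47 for the progenitor median, -0.43 to 1.11 for Hes1, -1.64 to 1.23 for Tnc, -1.22 to 0.34 for Sox9, -2.97 to 0.97 for Ptprz1, -0.90 to 0.19 for Ttyh1, -0.24 to 1.01 for Glul, -0.083 to 0.71 for Cst3, -3.55 to 0.14 for Sox2, -0.28 to 0.81 for Fabp7, -1.42 to 0.48 for Mt3 and -0.11 to 0.65 for Ndrg2. It also gave -12.4 to 5.81 for Gja1, -3.89 to 6.19 for Apoe and -8.34 to 0.44 for Slc4a4, whose sizes rest on libraries at or near 0 counts. Between the runs it gave -0.78 to 1.75 for Vim, -0.75 to 1.08 for Sox2, -0.046 to 4.17 for Hes1, -0.39 to 0.29 for Sox9, -0.35 to 0.043 for Id4, -0.38 to 1.80 for Dbi, -0.26 to 0.94 for Mt3, -0.58 to 0.027 for Ndrg2, -0.35 to 1.01 for Tnc and -1.06 to 0.62 for Ttyh1.

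Counts without overlap, left-out libraries being an alternative added after seeing the data, ranged as follows for progenitor, shared and mature astrocyte genes. In dopamine against serotonin they were 2 to 4, 1 to 2 and 2 to 7 higher, beside 3.63% to 6.11% of all genes. Within lane 8 they were 4 to 6, 5 to 6 and 16 higher, beside 32.8% to 43.5%. Between the runs they were 0 to 2, 1 to 6 and 6 to 13 lower, beside 18.2% to 25.8%, and for datL against datM 2 to 4, 2 to 5 and 8 to 12 lower, beside 24.4% to 30.5%. Of 32 log2 ratios of class sums, 25 stayed within the spread. Without the 2 most abundant members of a class the ratio was 0.76 for mature astrocyte genes in dopamine against serotonin, 1.31 and 1.4 for shared and mature astrocyte genes within lane 8, -0.94 for progenitor genes in datL against datM and -1.06 for shared genes between the runs. With the shared genes joined it was 1.43 for mature astrocyte genes within lane 8, and TMM scaling gave -0.64 for them between the runs.

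Titles number the datL, datM and serotonin libraries 1 and 2. Same-numbered deviations correlated at 0.113 between datL and datM, 0.0318 between datL and serotonin and 0.00208 between datM and serotonin. These values do not tell whether same-numbered libraries share an origin. The datL and datM titles carry a further number, which datL 1 and datM 2 share, and pairing by it was not examined. With a replicate block, 0 genes were called for dopamine against serotonin and 0 for datL against datM, where the progenitor median was 0.044 and Ptprz1 stood at -0.55. No paired analysis was possible within lane 8 and between the runs because those groups share fewer than 2 numbers. Lateral and Medial have 1 library each, and where leaving out a library left 1 in an arm, that library was assumed to vary like the others.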
